A study of Mus musculus with 14 samples.

Results

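The genes described here are 5 that set the sodium, potassium and chloride gradients of neurons: the pump beta subunits Atp1b1, Atp1b2 and Atp1b3, and the cation-chloride cotransporters Slc12a5 and Slc12a2. They were chosen by name as this pump and cotransporter group, not by a rule on their measured values. Earlier results of these data were known at that time. All 5 were found among the 39017 rows of the count table, and all 5 were among the 21298 genes that passed the filter on low counts.

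The study exposed mice to chronic social defeat stress (CSDS), in which a mouse is repeatedly attacked by an aggressive CD1 male and afterwards tested for social interaction. Translating ribosome affinity purification (TRAP) was used to isolate ribosome-bound mRNA of parvalbumin (PV) neurons, the fast-spiking inhibitory interneurons of the hippocampus. All mice were males on a C57BL/6 background that carried PV-Cre and a Cre-dependent EGFP-L10a transgene, so that a ribosomal protein tagged with EGFP was made in cells in which the PV promoter drives Cre. Each TRAP sample came from both hippocampi of 1 mouse. The TRAP groups were non-defeated mice (4 samples, C1, C6, C9 and C11), defeated mice classed as resilient (4 samples, R3, R5, R7 and R8) and defeated mice classed as susceptible (3 samples, S2, S4 and S10). A further group, called input, held total RNA of non-defeated mice taken before purification (3 samples, CI12, CI13 and CI14). TRAP and input differ in cell population and also in preparation, and these cannot be told apart in that comparison. Fewer cells of a type and less RNA per cell cannot be told apart either.

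The sodium-potassium pump exports sodium and imports potassium at the cost of ATP. It is built of a catalytic alpha subunit and a glycosylated beta subunit, which brings the alpha subunit to the membrane and tunes its affinity for potassium. Atp1b1 is the beta subunit most used by neurons, Atp1b2 (also called AMOG, adhesion molecule on glia) is known from glia, and Atp1b3 is widely expressed. Slc12a5 encodes KCC2, the neuron-specific potassium-chloride cotransporter that lowers intracellular chloride and so lets GABA hyperpolarise mature neurons. Slc12a2 encodes NKCC1, which loads cells with chloride together with sodium and potassium. It is prominent in immature neurons, in glia and in secretory epithelia such as the choroid plexus.

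In GENCODE release M21 on GRCm38/mm10, Atp1b1 (ENSMUSG00000026576) lies on the minus strand at chr1:164437109-164458355. Atp1b2 (ENSMUSG00000041329) lies at chr11:69599736-69605942 and Atp1b3 (ENSMUSG00000032412) at chr9:96332655-96364442, both also on the minus strand. Slc12a5 (ENSMUSG00000017740) lies on the plus strand at chr2:164960802-164999731. All 5 are protein-coding, and counts were per gene, so exons and transcript starts were not separated. RefSeq promoters on GRCm38.p6 were matched for 3 of the 5 genes. Atp1b2 and Slc12a2 had no entry and are not shown. Of the 3 shown, Atp1b1 was the only one of the 5 genes higher in TRAP, and Atp1b3 was lower. Slc12a5 has alternative starts, whose transcripts a count per gene adds together. For Atp1b3 only the most upstream start listed was used. Each line gives 120 bases upstream of an annotated start, 5′ to 3′ on the gene's strand, at chr1:164458356-164458475, chr9:96364443-96364562, chr2:164960682-164960801 and chr2:164967863-164967982. Capitals mark matches on either strand to the GC box, spelled GGGCGG, to the CCAAT box, and to a TATA box in the form TATATA or in the form TATAAA. No match overlapped another.
Atp1b1: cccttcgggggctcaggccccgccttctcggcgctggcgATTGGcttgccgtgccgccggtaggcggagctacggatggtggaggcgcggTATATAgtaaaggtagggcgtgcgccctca
Atp1b3: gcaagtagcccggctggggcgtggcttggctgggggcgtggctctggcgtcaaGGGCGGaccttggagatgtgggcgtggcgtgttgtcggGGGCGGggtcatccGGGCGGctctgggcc
Slc12a5, first start: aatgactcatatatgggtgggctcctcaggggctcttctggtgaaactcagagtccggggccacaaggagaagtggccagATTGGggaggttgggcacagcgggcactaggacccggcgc
Slc12a5, second start: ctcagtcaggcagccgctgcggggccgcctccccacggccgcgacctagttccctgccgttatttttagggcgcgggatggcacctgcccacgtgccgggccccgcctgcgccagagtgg

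The Atp1b1 window held a TATATA that begins 30 bases before the start and a CCAAT box on the reverse strand that begins 81 bases before it. Either form of the TATA box was found in 8.01% of the 120-base windows directly before 32851 RefSeq starts, and a CCAAT box in 21.3%. The Atp1b1 window also ends at its RefSeq start, whereas the Atp1b3 window and the first and second Slc12a5 windows end 11, 44 and 5 bases before theirs, so for these the shares come from windows placed slightly differently. The Atp1b3 window held 3 GC boxes and neither TATA form, and GC boxes were found in 26.5% of windows. The first Slc12a5 window held 1 reverse CCAAT box and the second held none of the motifs searched. These are matches of letters, and no binding was measured.

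Library totals ran from 64110214 to 94726962 counts. Markers were counted at an adjusted p of 0.05 in edgeR's quasi-likelihood test, non-defeated TRAP against input. Of all genes tested, 27.4% were higher and 27.6% were lower there. All 6 PV-neuron markers and all 4 GABA-neuron markers were higher in TRAP than in input. Levels are given as CPM, a gene's count over its library's total on a common scale, with TMM normalization factors. Summed CPM of the PV list were 1982 to 2395 in non-defeated TRAP against 125 to 162 in input. They were 1847 to 2253 in resilient TRAP and 1768 to 2422 in susceptible TRAP. Markers of excitatory neurons (5 of 5), oligodendrocytes (6 of 6) and microglia (5 of 5) were lower in TRAP past the same threshold. So were those of astrocytes (5 of 6), red blood cells (4 of 4) and choroid plexus (2 of 6). All astrocyte and choroid plexus markers had log2 fold changes below 0, the highest at -0.34 and -0.78. None of these lists was at 0 in TRAP. Of oligodendrocyte precursor markers, 1 of 2 was lower. Of 4 endothelial markers 1 was higher and 0 were lower, and of 7 thalamus markers 1 was higher and 0 were lower. Among TRAP libraries, R3 had the lowest oligodendrocyte sum, 260 CPM, and S10 the highest astrocyte sum, 432 CPM. Red blood cell sums were 885 to 1218 CPM in the susceptible group, against 114 to 240 in the non-defeated and 127 to 588 in the resilient group. Choroid plexus sums (434 to 748 CPM) and endothelial sums (8.03 to 13.04 CPM) were also higher in every susceptible than in every non-defeated TRAP library (205 to 318 and 3.29 to 5.88 CPM).

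Non-defeated TRAP was first compared with input, which asks which of the 5 mRNAs are more or less abundant on PV-neuron ribosomes than in the whole hippocampus. Atp1b1 was higher in TRAP. Atp1b2, Slc12a2 and, by a smaller amount, Atp1b3 were lower. Slc12a5 did not pass the test. Thus 4 of 5 genes passed an adjusted p of 0.05 in edgeR's quasi-likelihood test, where 55% of all genes tested did. Of these, 1 was higher and 3 were lower, beside 27.4% and 27.6% of all genes. The median log2 fold change of the 5 genes was -0.27, and that of all genes was -0.04.

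**Figure D1:**
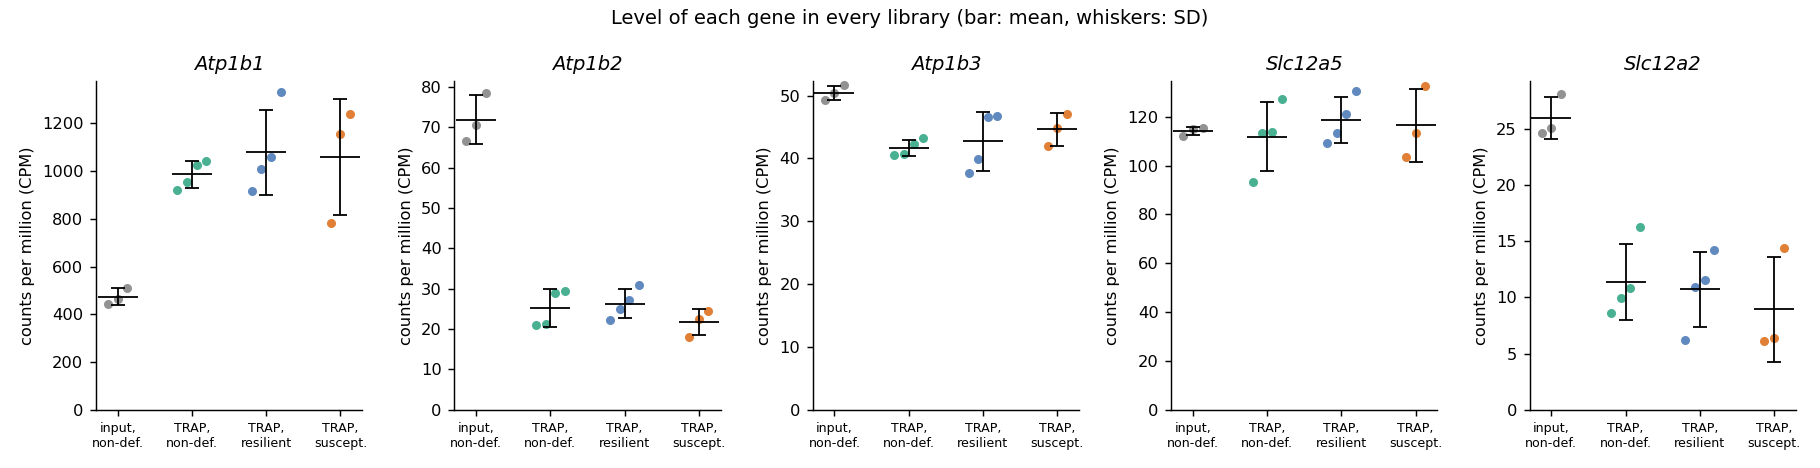
CPM of each of the 5 genes (vertical axis, starting at 0) in every library, with 1 point per library, a bar for the group mean and whiskers for the SD. Input and TRAP points are separate for Atp1b1, Atp1b2, Atp1b3 and Slc12a2 in the non-defeated mice and overlap for Slc12a5, while the 3 TRAP groups overlap for every gene.

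Atp1b1 was measured at 955 CPM in C11, 923 in C1, 1040 in C6 and 1026 in C9. In input it was at 445 CPM in CI12, 512 in CI13 and 466 in CI14. Every TRAP library was above every input library. The group levels were 986 ± 56.1 CPM (SD, n = 4) and 474 ± 34.3 CPM (SD, n = 3), a log2 fold change of 1.06 (SE 0.15, 2.08-fold, adjusted p = 3.22e-05 in edgeR). The 2-sided exact permutation test over samples gave p = 0.0286, the smallest it can give here. The last exon of Atp1b1 shares 575 bases with exons of Nme7 on the opposite strand, and the library kit does not mark strand, so reads from the shared bases cannot be assigned to either gene. Nme7 had 245 to 603 counts per library, between 0.28% and 1.56% of the Atp1b1 counts.

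Atp1b2 was at 29.1 CPM in C11, 20.9 in C1, 21.4 in C6 and 29.5 in C9, against 70.6 in CI12, 66.7 in CI13 and 78.5 in CI14. Here every TRAP library was below every input library. Means were 25.2 ± 4.69 CPM (SD, n = 4) and 71.9 ± 6.01 CPM (SD, n = 3), and the log2 fold change was -1.51 (SE 0.15, 2.85-fold lower, adjusted p = 1.23e-06 in edgeR; exact permutation p = 0.0286). Atp1b2 therefore differed most of the 5 on the log2 scale. Astrocyte marker sums fell on the same side, at 214 to 332 CPM in non-defeated TRAP and 693 to 739 in input. Oligodendrocyte, excitatory neuron and microglia sums were lower in TRAP as well. The part of any of these in the Atp1b2 difference was not tested.

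Atp1b3 was at 40.6 CPM in C11, 43.2 in C1, 42.3 in C6 and 40.7 in C9, and at 51.6 in CI12, 50.4 in CI13 and 49.4 in CI14. The groups did not overlap, although they lay close together. Means were 41.7 ± 1.29 CPM (SD, n = 4) and 50.5 ± 1.14 CPM (SD, n = 3), and the log2 fold change was -0.27 (SE 0.09, 1.21-fold lower, adjusted p = 0.0153 in edgeR; exact permutation p = 0.0286). This call was lost with an offset for GC content (-0.22, adjusted p = 0.059) and without CI12 (-0.26, adjusted p = 0.0546). Of the 50-base words in the longest Atp1b3 transcript, 11.7% also occur in the pseudogene Gm1848, whose counts were 5.21% to 7.93% of those of Atp1b3. How reads that match both were counted is not given in the sources used here.

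Slc12a5, the chloride extruder, was at 114 CPM in C11, 93.3 in C1, 114 in C6 and 127 in C9. The input values were 115 CPM in CI12, 112 in CI13 and 115 in CI14. The input values fell inside the range of the TRAP values. Means were 112 ± 13.98 CPM (SD, n = 4) and 114 ± 1.68 CPM (SD, n = 3), and the log2 fold change was -0.03 (95% interval -0.26 to 0.20, adjusted p = 0.835 in edgeR; exact permutation p = 0.771). The direction depended on a length correction: with an offset for gene length the value was 0.26 (adjusted p = 0.0394).

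Slc12a2 (ENSMUSG00000024597), the chloride importer, is annotated on the plus strand of chromosome 18. It was at 16.3 CPM in C11, 9.93 in C1, 8.59 in C6 and 10.8 in C9. In input it was at 25.1 CPM in CI12, 24.7 in CI13 and 28.1 in CI14. All TRAP libraries were below all input libraries, with C11 nearest to them. Means were 11.4 ± 3.38 CPM (SD, n = 4) and 25.9 ± 1.86 CPM (SD, n = 3), and the log2 fold change was -1.19 (SE 0.31, 2.28-fold lower, adjusted p = 0.00478 in edgeR). The exact permutation test gave p = 0.0571, where the smallest possible is 0.0286. Choroid plexus marker sums were 205 to 318 CPM in non-defeated TRAP and 722 to 826 in input, and astrocyte and oligodendrocyte sums were lower in TRAP as well. Their part in the Slc12a2 difference was not tested.

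**Figure D2:**
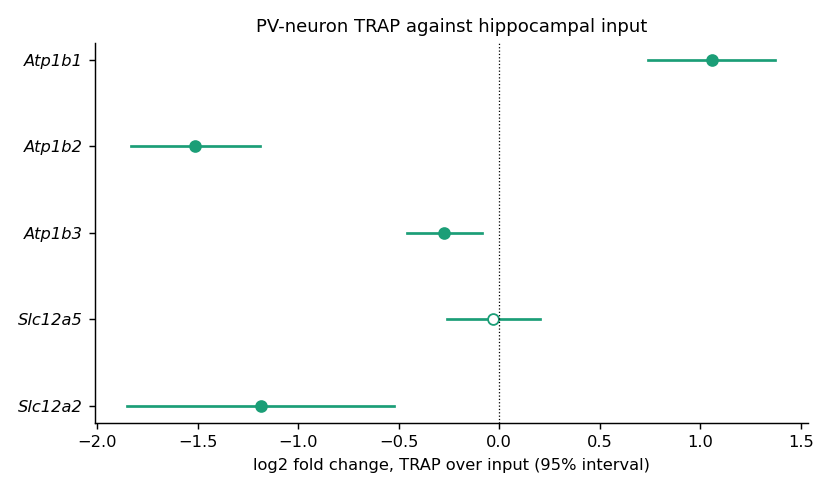
Log2 fold change (horizontal axis, TRAP over input, non-defeated mice) of the 5 genes, with 95% intervals from edgeR. Filled points passed an adjusted p of 0.05 and open points did not. Atp1b1, at 1.06, lies to the right of 0, Slc12a5 lies next to 0, and Atp1b2, at -1.51, lies farthest to the left.

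Per length of exon, as RPKM (CPM divided by the gene's union exon length in kilobases), Atp1b1 was far above the others in PV-neuron TRAP of non-defeated mice, at 320 ± 18.2 RPKM (SD, n = 4). Atp1b3 followed at 17.5 ± 0.541 RPKM, Slc12a5 at 15.0 ± 1.88, Atp1b2 at 6.17 ± 1.15 and Slc12a2 at 1.04 ± 0.309. Atp1b3 and Slc12a5 overlapped between libraries, and the other neighbours in this order did not. In input the order was Atp1b1 at 154 ± 11.1 RPKM (SD, n = 3), Atp1b3 at 21.1 ± 0.476, Atp1b2 at 17.6 ± 1.47, Slc12a5 at 15.3 ± 0.226 and Slc12a2 at 2.37 ± 0.170. There Atp1b2 stood above Slc12a5 in every library, and in TRAP it stood below it in every library. The input order depended on the length used: with the longest transcript, Slc12a5 stood above Atp1b2 in CI12 (19.1 against 18.8) and CI13 (18.6 against 17.8), while Atp1b2 stayed below Slc12a5 in every TRAP library.

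Of the summed RPKM of the 3 beta subunits, Atp1b1 made up 93.1% ± 0.401 (SD, n = 4) in non-defeated TRAP and 79.8% ± 1.55 (SD, n = 3) in input. The Atp1b2 share was 1.80% ± 0.328 in TRAP and 9.17% ± 1.04 in input. The Atp1b3 share was 5.09% ± 0.366 and 10.99% ± 0.731. Each share differed between TRAP and input without overlap, as a description with no test. In the stressed groups the Atp1b1 share was 93.4% ± 0.796 (SD, n = 4, resilient) and 93.3% ± 1.52 (SD, n = 3, susceptible), and the lowest of all TRAP libraries was S10 at 91.5%. The remaining family member, Atp1b4, had no counts in any library.

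The ratio of Slc12a5 to Slc12a2 in RPKM, extruder over importer, was 10.2 in C11, 13.8 in C1, 19.4 in C6 and 17.3 in C9. In input it was 6.72 in CI12, 6.68 in CI13 and 6.03 in CI14. Every TRAP library was above every input library. The means were 15.2 ± 4.04 (SD, n = 4) and 6.48 ± 0.388 (SD, n = 3). With the longest transcript as the length they were 11.2 and 4.78, so the size of the ratio depends on the length used. The ratio was 17.6 ± 6.04 (SD, n = 4) in the resilient and 22.8 ± 10.7 (SD, n = 3) in the susceptible group, and these overlapped with the non-defeated group. In the susceptible group it was 30.5 in S2, 27.3 in S4 and 10.6 in S10, so 1 of the 3 libraries lay within the range of the non-defeated group.

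**Figure D3:**
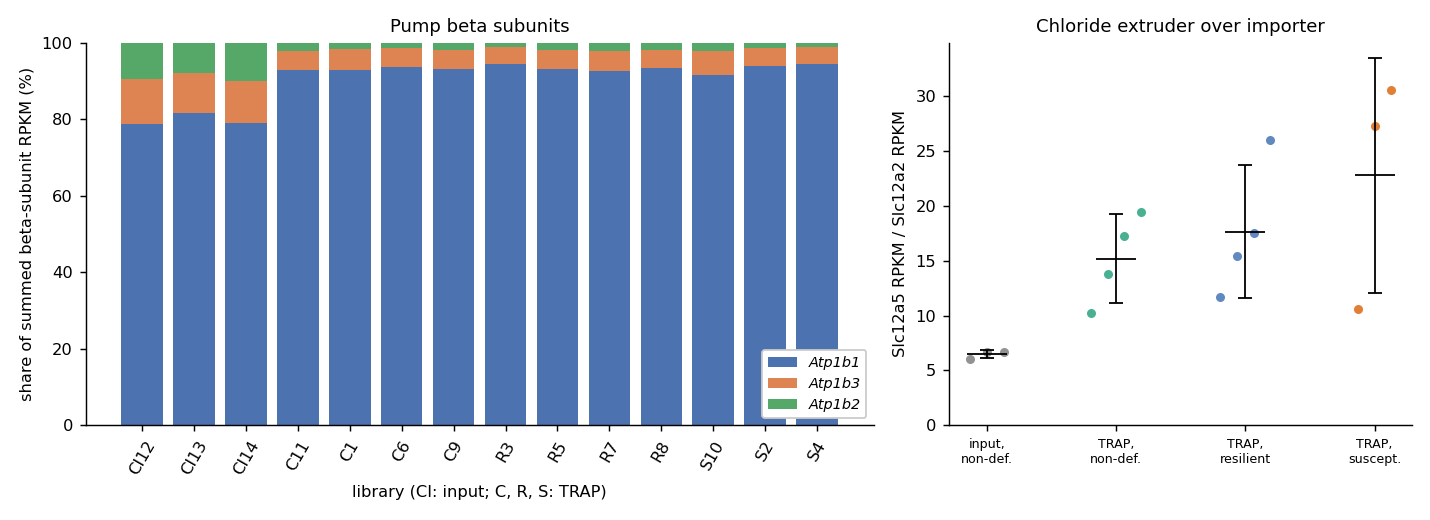
Left, share of each pump beta subunit in their summed RPKM (vertical axis, percent) as stacked bars, with 1 bar per library. Right, ratio of Slc12a5 RPKM to Slc12a2 RPKM per library, with the mean and SD of each group. The Atp1b1 share is 78.8% to 81.6% in input and at least 91.5% in TRAP, and the ratio is highest in S2, at 30.5.

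The partners of these genes were read from 5 lists of genes. Of 43 listed partners tested, 24 passed in TRAP against input. Among 8 pump partners tested, mostly FXYD subunits, 1 was higher and 5 lower, with a median log2 fold change of -1.24. The FXYD proteins are small regulators of the pump. Fxyd6 was at 10.3 ± 1.47 CPM (SD, n = 4) in TRAP and 54.97 ± 6.18 CPM (SD, n = 3) in input, a log2 fold change of -2.42 (adjusted p = 9.63e-08 in edgeR). Fxyd7 was at 15.5 ± 4.22 against 61.3 ± 4.35 CPM (-1.98, adjusted p = 8.02e-06). Fxyd4 was higher (2.60), but at only 0.359 CPM in TRAP, with overlapping groups, and its call was lost without any 1 of C1, CI13 or CI14 (adjusted p up to 0.098).

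Of 5 other cation-chloride cotransporters tested, 2 were lower and none was higher. They were the potassium-chloride cotransporters Slc12a7 (-2.34, adjusted p = 0.00974) and Slc12a4 (-1.51, adjusted p = 0.029), and the Slc12a4 call was lost without any 1 of C1, C6, CI12, CI13 or CI14 (adjusted p up to 0.0734). Among 10 regulators of the cotransporters, 4 were higher and 1 lower. Ckb, brain creatine kinase, rose from 1937 ± 82.4 CPM (SD, n = 3) in input to 4486 ± 409 CPM (SD, n = 4) in TRAP (log2 fold change 1.21, adjusted p = 5.48e-08 in edgeR). Wnk4, a kinase that acts on the cotransporters, was higher (0.95, adjusted p = 0.000181), and Cab39l, a scaffold of the kinases downstream of it, was lower (-0.51, adjusted p = 0.000498), a call lost with an offset for gene length (-0.22, adjusted p = 0.0519).

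Of 10 genes of other chloride and bicarbonate transport, 3 were higher and 5 lower. The anion exchanger Slc4a3 (1.40) and the chloride-proton exchanger Clcn3 (0.59) had the smallest p-values among the higher genes. Car2, carbonic anhydrase 2 (-1.12), and Slc4a10, a sodium-dependent bicarbonate transporter (-1.21), had them among the lower genes. Of 10 calcium pumps and sodium-calcium exchangers, 1 was higher, the plasma membrane pump Atp2b2 (0.42, adjusted p = 0.00346), and its call was lost when scaling by library totals alone (0.24, adjusted p = 0.0573). Atp2b4 (-0.81, adjusted p = 0.0142) and Slc8a2 (-0.86, adjusted p = 0.0352) were lower, and the Slc8a2 call was lost without any 1 of C1, C11, CI12, CI13 or CI14 (adjusted p up to 0.0944) and with an offset for gene length (adjusted p = 0.0968). The median log2 fold changes of these 4 lists were -0.76, 0.23, -0.50 and -0.20, in the order given. The 43 partners were chosen with earlier results of these data known, and their share called, 55.8%, was close to the background of 55%.

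The stress comparisons ask whether the genes differed in PV-neuron TRAP between mice that were defeated and became resilient or susceptible, and mice that were not defeated. None of the 5 genes passed in any of the 3 comparisons. In resilient against non-defeated mice 0 of 5 were called, where edgeR called 0% of all genes at an adjusted p of 0.05. In susceptible against non-defeated mice 0 of 5 were called, beside 0.0376% of all genes. In susceptible against resilient mice 0 of 5 were called, beside 1.89%. At an unadjusted p under 0.05, 0 of 5 also passed in edgeR in each comparison, where 4.38%, 13.3% and 20.9% of all genes did, in the same order. DESeq2 at an adjusted p of 0.05 called none of the 5 in these comparisons. The median log2 fold changes of the 5 genes were 0.06, 0.06 and -0.03, beside medians of 0.0023, 0.01 and 0.0028 over all genes. The comparisons share groups, so they are not independent of each other.

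Atp1b1 was at 1333 CPM in R3, 917 in R5, 1057 in R7 and 1010 in R8. In the susceptible group it was at 1156 CPM in S2, 1239 in S4 and 782 in S10. R3 was the highest and S10 the lowest of the 11 TRAP libraries, and the groups overlapped. The log2 fold change was 0.13 (95% interval -0.15 to 0.42) in resilient and 0.10 (95% interval -0.20 to 0.41) in susceptible against non-defeated mice. Between susceptible and resilient mice it was -0.03 (95% interval -0.34 to 0.28).

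Atp1b2 was at 22.3 CPM in R3, 24.9 in R5, 30.9 in R7 and 27.1 in R8. It was at 22.5 CPM in S2, 18.1 in S4 and 24.4 in S10. S4 was the lowest TRAP library, and the groups overlapped. The log2 fold change was 0.06 (95% interval -0.24 to 0.36) in resilient and -0.22 (95% interval -0.54 to 0.11) in susceptible against non-defeated mice. Susceptible against resilient mice gave -0.28 (95% interval -0.61 to 0.05, adjusted p = 0.312 in edgeR, exact permutation p = 0.143), the smallest p among the 15 stress values of these genes. The 3 TRAP libraries highest in Atp1b2, which were R7, C9 and C11, also had the 3 highest sums of 7 thalamus markers (759, 420 and 319 CPM). These sums were 45.1 to 759 CPM in the resilient and 57.6 to 162 CPM in the susceptible group, with a median log2 fold change of -1.11 between susceptible and resilient mice, and 0 of 7 passed in edgeR, also at an unadjusted p under 0.05. Their part in the Atp1b2 value was not tested.

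Atp1b3 stood between 37.7 and 46.8 CPM in the resilient group and between 41.9 and 47.0 CPM in the susceptible group. Its log2 fold changes were 0.03 (95% interval -0.14 to 0.21) and 0.10 (95% interval -0.09 to 0.28) against non-defeated mice, and 0.06 (95% interval -0.12 to 0.25) between the defeated groups. These were the narrowest intervals of the 5 genes.

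Slc12a5 was at 109 CPM in R3, 113 in R5, 121 in R7 and 131 in R8, and at 133 in S2, 113 in S4 and 103 in S10. Libraries of each group lay on both sides of the others. The log2 fold changes were 0.08 (95% interval -0.13 to 0.30) and 0.06 (95% interval -0.17 to 0.29) against non-defeated mice. The value was -0.03 (95% interval -0.26 to 0.20) between susceptible and resilient mice.

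Slc12a2 was at 6.17 CPM in R3, 14.2 in R5, 11.5 in R7 and 10.9 in R8. It was at 6.38 CPM in S2, 6.09 in S4 and 14.4 in S10. S2 and S4 were low and S10 was among the highest TRAP libraries, so the susceptible group spanned most of the range. The log2 fold change was -0.09 (95% interval -0.71 to 0.53) in resilient mice, -0.35 (95% interval -1.03 to 0.33) in susceptible mice, and -0.26 (95% interval -0.94 to 0.42) between them. The value in susceptible against non-defeated mice moved with single libraries: it was -0.87 without S10 (adjusted p = 0.168 in edgeR), -0.16 without S2, -0.14 without S4 and -0.12 without C11. Within the libraries numbered 1 to 6 it was -0.565, and within those numbered 7 to 11, where S10 is the only susceptible library, it was 0.12. Choroid plexus sums, mostly Ttr, were 434 to 748 CPM in the susceptible and 205 to 318 CPM in the non-defeated libraries. Their part in these values was not tested. These intervals were the widest of the 5 genes.

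**Figure D4:**
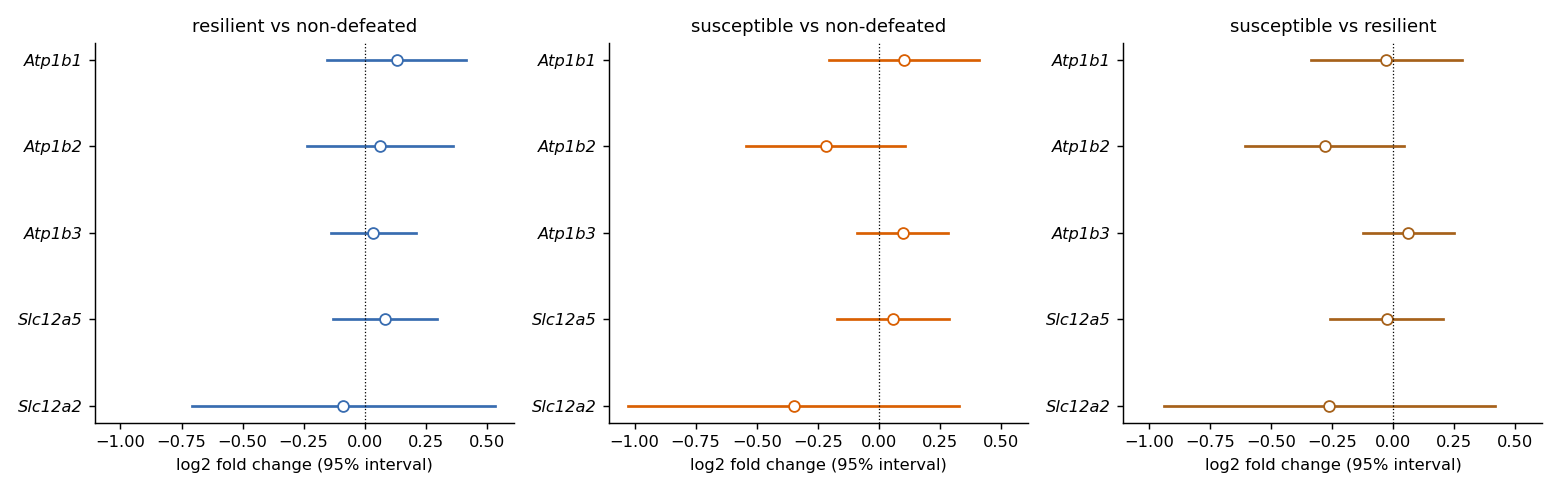
Log2 fold change (horizontal axis) of the 5 genes in the 3 stress comparisons, with 95% intervals from edgeR. Open points did not pass an adjusted p of 0.05. The intervals include 0 in every panel, and those of Slc12a2 are the widest.

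Among the partner lists, 0 of 43 genes passed an adjusted p of 0.05 in edgeR or in DESeq2 in any of the 3 stress comparisons. At an unadjusted p under 0.05 in edgeR, 1 of 43 (2.33%) passed in resilient against non-defeated mice, 6 (14%) in susceptible against non-defeated mice and 11 (25.6%) in susceptible against resilient mice, beside 4.38%, 13.3% and 20.9% of all genes. Ckb was at 4958 ± 300 CPM (SD, n = 4) in resilient and 4094 ± 385 CPM (SD, n = 3) in susceptible mice, without overlap (log2 fold change -0.28, adjusted p = 0.0909 in edgeR). It passed without S10 (-0.35, adjusted p = 0.0398) and with the sample number as covariate (-0.27, adjusted p = 0.0272). Wnk1, the kinase at the head of the cascade that phosphorylates the cotransporters, was at 42.5 ± 4.97 and 52.9 ± 5.31 CPM (log2 fold change 0.32, adjusted p = 0.0969). Wnk1 had a value of 0.24 in susceptible against non-defeated mice (adjusted p = 0.331), and Wnk2 one of 0.25 in resilient against non-defeated mice (adjusted p = 1). Fxyd2 passed between susceptible and resilient mice without S10 (0.86, adjusted p = 0.0231). With all libraries, Fxyd2 (0.57), Atp2b4 (0.62), Slc8a3 (-0.63) and Slc12a9 (-0.50) had adjusted p-values in that comparison of 0.183 to 0.21. Against non-defeated mice, the susceptible values of Fxyd5 (0.90), Atp2a3 (1.05) and Slc8a3 (-0.73) had adjusted p-values of 0.286 to 0.341.

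Across the 11 TRAP libraries, 3 combined high Atp1b1 with low Slc12a2. R3, S4 and S2 held the 3 highest Atp1b1 levels and the 3 lowest Slc12a2 levels. On log2 CPM, Pearson's r was -0.85 (permutation p = 0.00098, adjusted over 10 pairs of genes p = 0.0098) and Spearman's rho was -0.79 (permutation p = 0.00528, adjusted p = 0.0528), so the rank measure missed the threshold after adjustment. Without the 2 libraries farthest from the Atp1b1 median, S10 and R3, r was -0.84. With each group's mean removed it was -0.90, and within the 6 libraries numbered 1 to 6 it was -0.91. Over the 5 libraries numbered 7 to 11 it was -0.61, too few libraries for a test. R3, S2 and S4 stood apart from the rest. Over the other 8 libraries r was -0.55 (permutation p = 0.163) and rho was -0.48 (permutation p = 0.244), an alternative chosen after seeing the data. With 8 libraries over a narrower range, it cannot show whether the relation rested on R3, S2 and S4. Libraries with high Slc12a2 also had high astrocyte marker sums: C11, S10 and R5, the 3 highest in Slc12a2, had the 3 highest astrocyte sums (332, 432 and 350 CPM). R3, S4 and S2 had astrocyte sums of 201, 221 and 234 CPM. C11, S10 and R5 also had the 3 highest oligodendrocyte, excitatory neuron and microglia sums. Their oligodendrocyte sums were 732, 766 and 1009 CPM, against 260, 595 and 680 CPM in R3, S4 and S2. Excitatory neuron sums were 830, 951 and 1010 CPM against 476, 583 and 676 CPM. Microglia sums were 31.5, 32.1 and 31.3 CPM against 24.6, 24.4 and 26.3 CPM. At the low end the match was looser. C1, at 9.93 CPM Slc12a2, had lower astrocyte (214 CPM) and microglia (23.5 CPM) sums than S4 and S2. The S2 oligodendrocyte sum, 680 CPM, was above those of C9 (626 CPM) and C1 (535 CPM). Its excitatory neuron sum, 676 CPM, was above that of C1 (628 CPM). Choroid plexus and red blood cell sums did not place C11, S10 and R5 highest. Choroid plexus sums were 281, 748 and 436 CPM in C11, S10 and R5, and 165, 434 and 445 CPM in R3, S4 and S2. Red blood cell sums were 240, 1218 and 588 CPM in the first 3 and 238, 910 and 885 CPM in the others. PV-neuron sums were 2227, 1768 and 1847 CPM in C11, S10 and R5, and 2253, 2422 and 2320 CPM in R3, S4 and S2. C1 and C6 also had high PV-neuron sums, 2283 and 2395 CPM. The part of any of these cells in the relation was not tested. In the other 9 pairs the adjusted p of r was 0.066 or more.

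**Figure D5:**
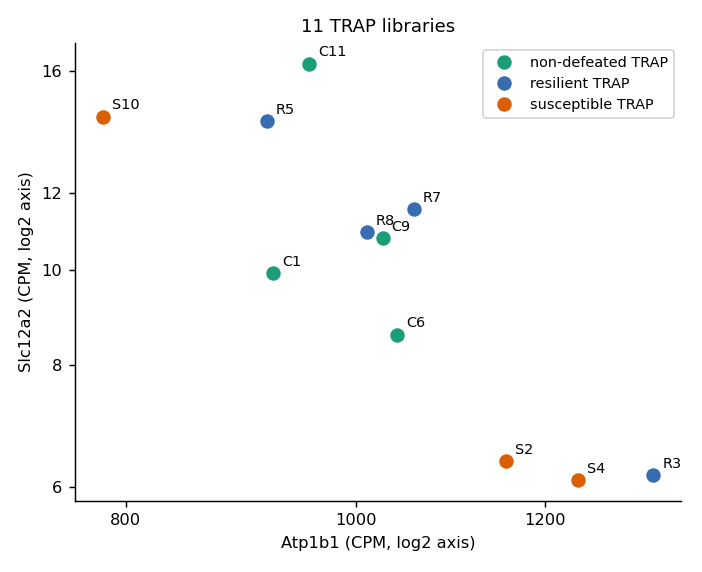
Atp1b1 CPM (horizontal axis, log2 scale) against Slc12a2 CPM (vertical axis, log2 scale) in the 11 TRAP libraries, with 1 labelled point per library coloured by group. R3, S2 and S4 lie at the lower right, with Slc12a2 near 6 CPM, and S10, at 782 CPM Atp1b1, lies at the upper left.

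The genes whose log2 CPM followed each of the 5 most closely over the 11 TRAP libraries are given as a description by Pearson's r. For Atp1b1 they were Tspan7 (0.96), Emc3 (0.96) and Pofut2 (0.95). For Atp1b2 they were Aatk (0.95), the bicarbonate transporter Slc4a10 (0.95) and Gm9826 (0.95). For Atp1b3 they were Endog (0.95), Nudc (0.94) and Hdgf (0.92). For Slc12a5 they were Cnot3 (0.90), Dmtf1 (0.90) and Mir3572 (0.89), the last at 0.578 CPM. For Slc12a2 they were Dhx37 (0.96) and Gbf1 (0.96). These libraries share depth, library composition and the group differences described above, and the highest values out of 21298 genes were picked.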

How the data were processed

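RNA-seq covered 11 PV-neuron TRAP samples (4 from non-defeated mice, 4 from resilient mice and 3 from susceptible mice) and 3 input samples of total RNA. The authors deposited raw read counts per gene, with no normalization. Per the study's methods, libraries were made with SMART-Seq v4 and Nextera XT. The submitters' processing notes name mm10, HTSeq and STAR 2.5.3a, while the paper's methods name another STAR version. The strand setting is not given in the sources used here. Samples were grouped by their labels. Genes were named from GENCODE M21 (37607 of 39017 rows, and the unnamed rows held 0.824% of counts). The 5 genes and the partner and marker lists were chosen with earlier results of these data known.

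Counts of all 14 libraries were fitted together in edgeR 4.0.16 (R 4.3.3) with TMM factors, the default low-count filter (21298 genes kept) and the 2-sided quasi-likelihood test, adjusted by Benjamini-Hochberg over all genes, with a threshold of 0.05. Exact permutation tests of the difference of means used log2 CPM with a prior count of 2. Correlations used 100000 permutations. RPKM used union exon length. The fit was tested on simulated data for TRAP against input alone, not for the stress comparisons.

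Genes named were the 5, the 2 partners per list and direction with the smallest p in TRAP against input past the threshold, the 1 partner per list and direction in each stress comparison with the smallest p under 0.05, and the 3 genes most correlated with each of the 5. Some genes that met the rules are not reported here. Alternatives were RLE factors, library totals, 2 other filters, the likelihood ratio test, DESeq2 1.42.0, fits of fewer groups, the sample number as a covariate or range, offsets for GC content and length, the longest transcript as the length, and leaving out each library. Each TRAP sample came from 1 mouse. Whether the input samples came from separate mice is not stated, so p-values that use them measure only the spread between these samples.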

Additional observations from a re-analysis of the deposited data

How the results depend on the processing

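Every library has its own sample number, so the labels give no link between samples of different groups. No paired analysis was therefore made. In TRAP against input, Atp1b1, Atp1b2 and Slc12a2 kept their direction and side of the threshold under all 16 alternatives each. Scaling by library totals alone moved the median of all genes from -0.04 to -0.23, and Slc12a5 was then at -0.22 (adjusted p = 0.084). Atp1b3 was no longer called with the GC offset (-0.22), and leaving out 1 library gave -0.29 to -0.25. Slc12a5 turned to 0.26 with the length offset, and leaving out 1 library gave -0.10 to 0.049. The cause was not tested. In the stress comparisons none of the 5 genes was called under any alternative, so changes of sign there concern values that never passed. In resilient against non-defeated mice, Slc12a2 was at 0.0076 with the sample number as covariate, and leaving out 1 library gave -0.25 to 0.13 for Slc12a2, -0.024 to 0.15 for Atp1b2 and -0.011 to 0.091 for Atp1b3. In susceptible against non-defeated mice, leaving out 1 library gave -0.026 to 0.28 for Atp1b1 and -0.047 to 0.14 for Slc12a5. Between susceptible and resilient mice it gave -0.16 to 0.15 for Atp1b1 and -0.13 to 0.052 for Slc12a5. Within the libraries numbered 7 to 11, where S10 is the only susceptible library, so that these values rest on S10 alone, Atp1b1 was at -0.34 and Slc12a5 at -0.22 in susceptible against non-defeated mice, and against resilient mice Atp1b1 was at -0.40, Slc12a5 at -0.28 and Slc12a2 at 0.35. Within those numbered 1 to 6, Slc12a5 was at 0.25 and 0.14. Of the partner genes, 0 were called between susceptible and resilient mice, against 1 with the sample number as covariate, and 0 to 3 without 1 library, the 3 without S10. Over all genes, the 403 calls between susceptible and resilient mice became 126 with no filter, 1099 with the likelihood ratio test, 1004 with DESeq2, 0 with the 2 groups alone, 1 with the 11 TRAP libraries and 1109 with the sample number as covariate. With 3 or 4 samples a group, the intervals above set what could be seen.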
